A study of Mus musculus with 12 samples.

Results

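The genes described here encode the hnRNP and SR families of splicing factors and a small set of their partners at the 3′ splice site. They were chosen by symbol alone: every row of the count tables whose symbol starts with Hnrnp or with Srsf and a number, together with Tra2a, Tra2b, U2af1, U2af2, Sf1, Sf3b1, Srrm1 and Srrm2, while 1 further hnRNP gene was left out by the rule. This gave 38 genes of 24525 in the tables, with 19 hnRNP genes, 11 Srsf genes and 8 others. All 38 were among the 13112 genes that passed the filter on low counts.

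The libraries came from neural stem/progenitor cells (NSPCs) of C57BL/6 embryo brains at E14.5, grown as neurospheres with EGF and bFGF and taken at passage P1, from wild-type embryos in 3 libraries and from Ythdf2-/- embryos in 3. Ythdf2 encodes a cytoplasmic protein that binds N6-methyladenosine (m6A) in mRNA and promotes its decay. The mutants lack the 5′ UTR and first exon of Ythdf2 in all cells, after a cross with mice that express Cre ubiquitously, and both genotypes were otherwise untreated. These 6 libraries are the input RNA of an m6A immunoprecipitation experiment, and the 6 immunoprecipitated samples were not analysed here.

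In mammalian cells, SR proteins bind exonic enhancers through RNA recognition motifs and recruit spliceosome components through domains rich in arginine and serine. Many hnRNP proteins bind introns or silencers and oppose exon use, and the balance between both families shifts alternative exons, a class of exon that is abundant in the developing brain. U2af2 binds the polypyrimidine tract and U2af1 the terminal AG of the 3′ splice site, Sf1 binds the branch point first, and Sf3b1 takes over the branch point within the U2 snRNP. Many of these genes control their own output by splicing in a "poison" exon, which brings a premature stop codon and sends the transcript to nonsense-mediated decay (NMD).

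For genes with such transcripts, a gene-level count adds reads from coding and NMD transcripts together. In the GENCODE M21 annotation, 26 of the 38 genes (68.4%) had at least 1 NMD transcript, against 28.9% of the 12288 tested genes with a coding transcript. An internal exon found only in NMD transcripts was annotated in 16 of the genes, with 25 such exons behind 23 distinct 3′ splice sites. The 3′ splice sites of such exons in 3 SR genes, the Tra2 pair, the Hnrnpl pair and U2af1 are shown, since they are the sequences at which the annotated poison exons are joined. Each line gives 20 intron bases and 3 exon bases, 5′ to 3′ on the gene's strand, with the terminal AG of the intron in capitals, read from the RefSeq GRCm38.p6 assembly.
Srsf3, plus strand, chr17:29039434-29039456: aaaaatgaaccccgttacAGagt
Srsf7, minus strand, chr17:80205079-80205101: acctggtcaaaacctttcAGgtt
Srsf9, plus strand, chr5:115328327-115328349: cctgttccctgtcttctcAGcct
Tra2a, minus strand, chr6:49253106-49253128: aatgttctttttccattaAGgtt
Tra2b, minus strand, chr16:22259259-22259281: cctgttctttttctattaAGgtt
Hnrnpl, plus strand, chr7:28817315-28817337: tgtaaaaccatgtgatgcAGggt
Hnrnpll, minus strand, chr17:80045020-80045042: tgtgaaaccgtgtaatacAGgtt
U2af1, minus strand, chr17:31651806-31651828: aataacccgctctctttcAGcac

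The exons that follow were 456 bases long in Srsf3, 460 in Srsf7, 358 in Srsf9, 306 in Tra2a, 70 in Hnrnpl, 83 in Hnrnpll and 40 in U2af1, while Tra2b had forms of 276 and 397 bases from the same site. The Tra2a and Tra2b sites shared 20 of 23 bases although the genes lie on different chromosomes, and the Hnrnpl and Hnrnpll sites shared 18 of 23. The tract before the AG differed in pyrimidine content: 15 of the 18 intron bases before the AG were C or T in Tra2b and 16 in Srsf9, but only 8 in Srsf3, Hnrnpl and Hnrnpll. Whether these exons were included differently in the 2 genotypes was not analysed here, because the deposited tables hold 1 value per gene.

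The targeted gene followed the labels. Ythdf2 was at 71.9, 73.3 and 91.4 CPM (read counts per TMM-scaled library size) in the wild-type libraries and at 11.7, 14.7 and 11.1 in the Ythdf2-/- libraries, so that the mutants held 15.8% of the wild-type mean. The log2 fold change was -2.66 ± 0.18 (SE), with an unadjusted p of 4.17e-06 and an adjusted p of 0.0547 in edgeR's quasi-likelihood test over 13112 genes. No gene passed the threshold used throughout, an adjusted p under 0.05, in this fit (0%).

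One library stood apart, and the fold changes below are given with and without it. The libraries held 11029827 to 13185778 counted reads, and the first principal component of log2 CPM, with 74.2% of the variance, set wild-type replicate 3 at 91.0 against -30.6 to -6.04 for the other 5. In that library the 10 proliferation genes listed (Mki67, Top2a and others) summed to 133 CPM, against 1982 to 2977 in the other 5. Its summed CPM was 6051 for 5 astrocyte markers (others 942 to 2202) and 622 for 7 neuron markers (72.5 to 99.1). The astrocyte markers Aldh1l1 and S100b and the neuron markers Stmn2 and Snap25 were not highest in that library. Among the astrocyte markers, Gfap separated the genotypes, at 437, 625 and 3046.5 CPM in wild type and at 127, 87.7 and 5.55 in Ythdf2-/-, while the other 4 overlapped. Only Stmn2 did so among the neuron markers, at 1.54, 1.45 and 1.46 CPM in wild type and at 0.085, 0.592 and 0.161 in Ythdf2-/-. Neural progenitor markers were present in every library, at a summed 5194 CPM in wild-type replicate 3 and 7898 to 9111 in the others, although Sox2, Pax6 and Hes5 were highest in that replicate. Aif1, Tyrobp, Ptprc, Cdh5, Cldn5, Col1a2 and Lum had at most 3 reads in all libraries together. The summed CPM over 6 microglia and macrophage, 4 endothelial and 5 mesenchymal markers stayed between 0.511 and 1.62 per list and library. In bulk RNA, fewer cells of a type and less RNA per cell cannot be told apart, and the part of cell makeup in the results on splicing genes was not tested.

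As a group the 38 genes held 1.09% of counted reads. Their summed CPM was 12293, 11621 and 10226 in the 3 wild-type libraries and 10424, 10378 and 10569 in the 3 Ythdf2-/- libraries. The first 2 wild-type libraries were above all mutants and wild-type replicate 3 was below all of them, so the groups overlapped. A negative log2 fold change, meaning a lower level in Ythdf2-/-, was found for 31 of 38 genes (81.6%), against 51.9% of all genes tested. The median was -0.11 over the 38 genes and -0.01 over all genes tested. Without wild-type replicate 3, 32 of 38 were negative (84.2%, against 48.2% of all genes) and the medians were -0.19 and 0.01. Without wild-type replicate 1, 22 of 38 were negative (against 50.8% of all genes) and the medians were -0.02 and -0.006.

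No member passed an adjusted p of 0.05 in edgeR's test, and 1 member, Hnrnph1, had an unadjusted p under 0.05. This was 1 of 38 on the lower side, where the share over all genes was 1.82%, and 0 of 38 on the higher side, where it was 1.81%. DESeq2, which called 0.236% of all genes, and limma-voom, which called 0%, called 0 members as well. Limma-voom with sample quality weights, which gave wild-type replicate 3 a weight of 0.096, called Hnrnph1 (adjusted p = 0.0474) among 0.557% of genes called lower and 0.595% called higher. Without wild-type replicate 3, 0 members passed the adjusted threshold (0.0151% of genes did), while 12 of 38 had an unadjusted p under 0.05, all lower in Ythdf2-/-, against 8.58% of all genes on that side and 8.03% on the other. The 12 were Hnrnpab, Hnrnpdl, Hnrnpf, Hnrnph1, Hnrnpll, Srsf2, Srsf3, Srsf7, Srsf9, Srsf10, Tra2b and U2af2. The 10 proliferation genes were lower in the same fit, 10 of 10, of which 7 had an unadjusted p under 0.05, and their median was -0.50 on the log2 scale. Both remaining wild-type libraries, at a summed 2977 and 2644 CPM, were above the mutants at 1982, 2339 and 2211, and their part in the result on splicing genes was not tested. The count of members was 0 without Ythdf2-/- replicate 1, where 0.914% of genes were on the lower and 0.936% on the higher side. It was 2, both lower, without Ythdf2-/- replicate 2, against 2.03% and 2.11% of genes. With all libraries, 16 members had an unadjusted p under 0.05 in limma-voom with quality weights, all lower, against 13.4% of genes on that side and 14.7% on the other. DESeq2 gave 2 such members, both lower, against 2.36% and 1.91% of genes, and limma on FPKM gave 0, against 1.47% and 2.91%.

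The 3 libraries of one genotype did not overlap those of the other for 5 members, and in all 5 the Ythdf2-/- libraries were below: Hnrnph1, Hnrnpdl, Srsf5, Srsf6 and Srsf11. Over all genes tested, 4.92% were separated in that direction and 5.24% in the other, in which there was no member. With wild-type replicate 3 left out, 22 members had both wild-type libraries above all 3 mutants, against 20.0% of genes, and Srrm2 was the 1 member with both below, against 18.8% of genes.

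**Figure D1:**
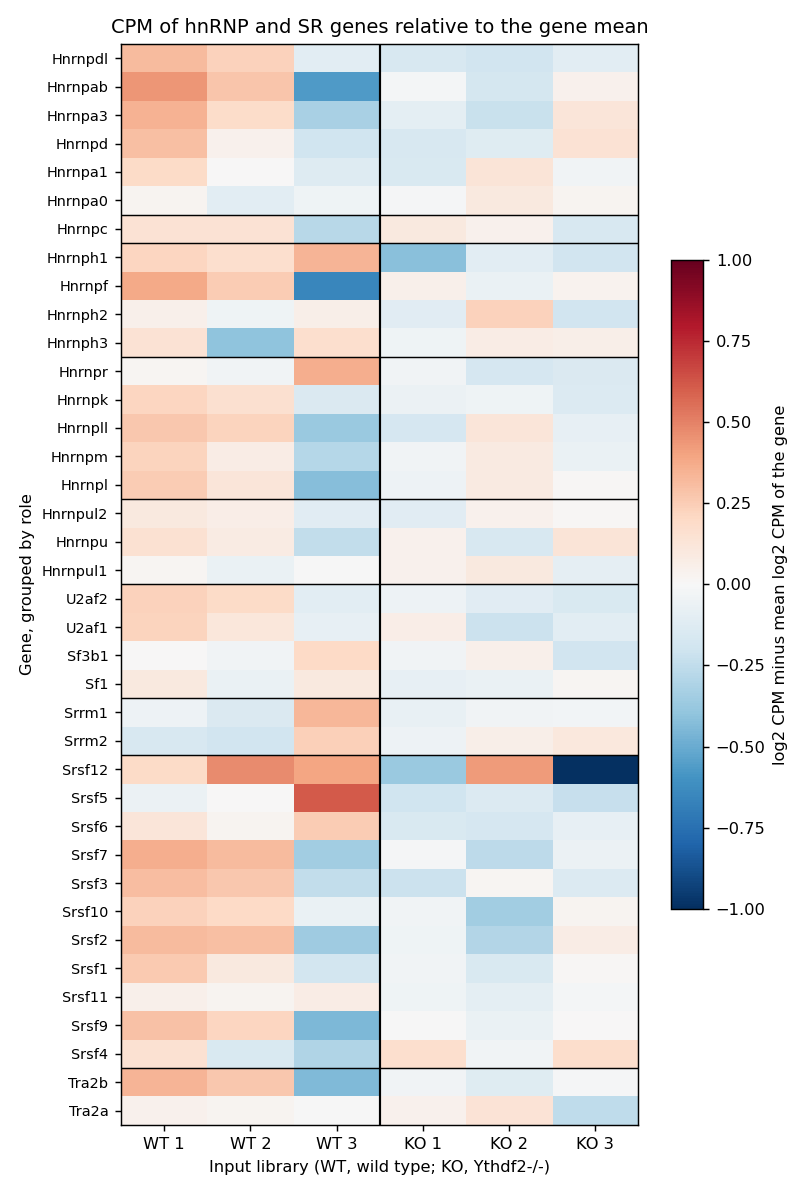
Log2 CPM of each of the 38 genes in each input library, minus the gene's mean over the 6 libraries (colour, log2 units), with genes grouped by role (horizontal lines) and the genotypes divided by the vertical line. Wild-type replicate 3 (WT 3) was the lowest of the 6 libraries for 18 genes and the highest for 10, and the darkest cell is Srsf12 in KO 3, a gene at about 1 CPM there (the scale ends at 1 unit on either side).

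The level of these genes varied less between libraries than that of most genes. The coefficient of variation of CPM over the 6 libraries had a median of 13% among members and 21.1% among all genes tested, and without wild-type replicate 3 it was 10.8% against 15.3%. Members were also read more deeply, with a median level of 234 CPM against 32.5. For 37 of 38 members (97.4%) the log2 fold change was under 0.5 in size, as for 87.4% of all genes. Wild-type replicates 1 and 2 were close, with a median absolute log2 ratio of 0.08 over the members, while the median absolute log2 ratio of wild-type replicate 3 to their mean was 0.36. That library was the lowest of the 6 for 47.4% of members and 34.4% of all genes, and the highest for 26.3% and 33.8%.

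Levels were compared between genes per kilobase of transcript, as RPKM from the TMM-scaled counts and the deposited gene length. Hnrnpk led with a wild-type mean of 349 ± 44.9 RPKM (SD, n = 3) and a Ythdf2-/- mean of 311 ± 10.6. Hnrnpf followed at 287 ± 98.4 and 276.5 ± 11.9, and then Hnrnpab at 246 ± 82.1 and 219.5 ± 16.6. Srsf5 was the highest SR gene at 264 ± 72.3 and 199 ± 6.68, which placed it within the range of the most abundant hnRNP genes. In the order of mean RPKM, 34 of 37 neighbouring pairs had overlapping ranges over the 6 libraries, and 8 of the 37 were in the same order within every library, among them Hnrnpk above Hnrnpf and Hnrnpf above Hnrnpab. The pairs without overlap were at the bottom, where Hnrnpa1 (mean 25.5 RPKM), Srsf4 (7.97), Hnrnph3 (3.67) and Srsf12 (0.762) were each separated from the next. Of the 10 highest members, 9 remained among the 10 highest when the union of RefSeq exons was taken as the length. The order depended on that choice, since Hnrnpab (219.7) and Srsf5 (215.3) then lay above Hnrnpf (209.5), and Hnrnpu went from 209 to 101 RPKM.

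**Figure D2:**
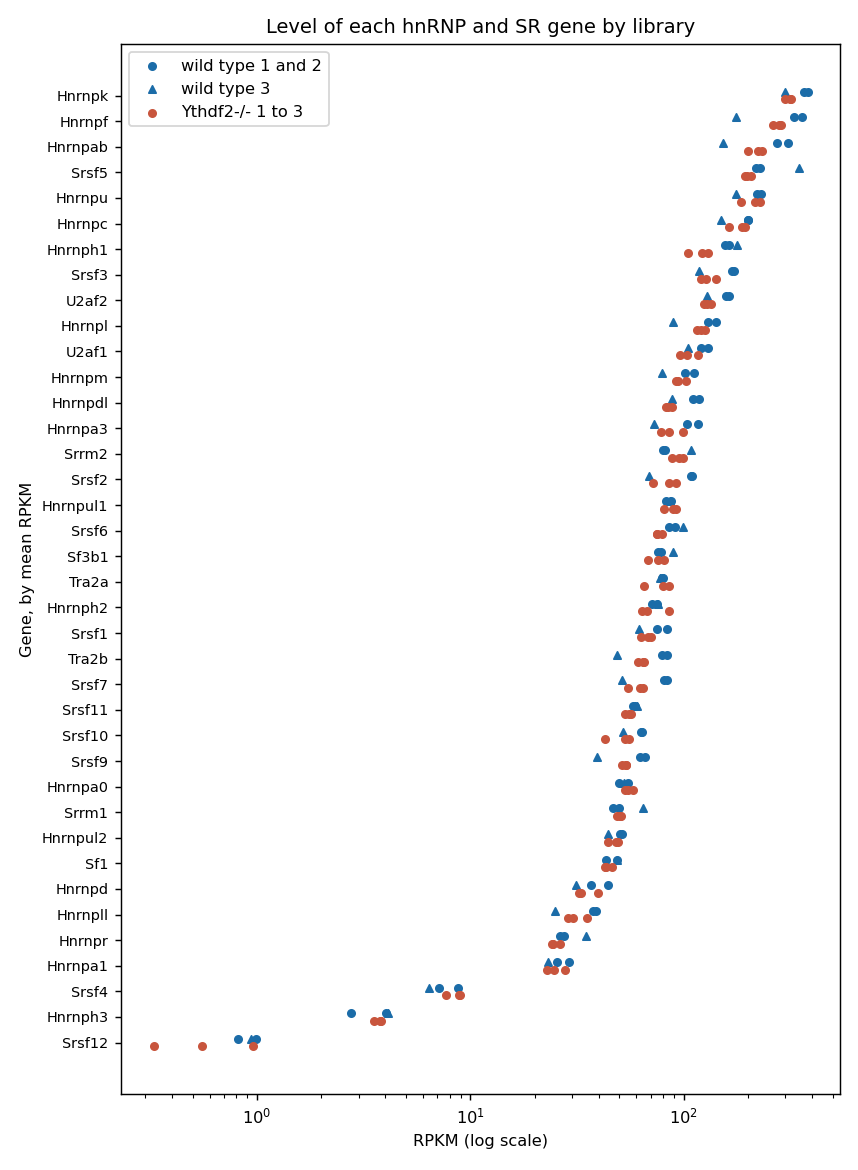
RPKM of each gene (x axis, log scale) in the 6 input libraries, with genes ordered by mean RPKM from Hnrnpk at 330 to Srsf12 at 0.762. Blue circles are wild-type replicates 1 and 2, blue triangles wild-type replicate 3 and red circles the Ythdf2-/- libraries, and points of neighbouring genes overlap along most of the order.

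A read that fits several loci cannot be assigned with certainty, and how the counting treated such reads is not given in the sources used here. By alignment of each gene's longest coding transcript to the genome, 15 of the 38 genes had at least 1 other locus with at least 300 aligned bases at 95% identity or more. Hnrnpa3 had 25 such loci, Hnrnpf 7, Hnrnpa1 and Srsf3 4 each, and Tra2b 3. Hnrnpc, Hnrnpk and Tra2a had 2 each. The absolute levels of these genes, the low one of Hnrnpa1 in particular (40.1 to 50.8 CPM for an hnRNP that is usually abundant), are therefore uncertain.

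Exons of other genes on the opposite strand also crossed several members, and the strand setting of the counting is not stated although the library kit was stranded. Hnrnpab shared 809 exon bases with Phykpl, Hnrnpu 804 with Cox20, Srsf2 460 with Mettl23 and 288 with Mfsd11, Hnrnpk 330 with Rmi1, and Srsf4 1532 with the noncoding Gm12992. Hnrnpm shared 1169 exon bases with March2 on its own strand.

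Among the hnRNP A/B and D genes, whose products carry paired RNA recognition motifs and coat nascent transcripts, Hnrnpab was the most abundant. It was at 743, 661 and 368 CPM in wild type and at 539, 483 and 561 in Ythdf2-/-. The 2 wild-type libraries without replicate 3 were above all mutants and replicate 3 was below all, at 52.4% of the mean of the other 2. Its log2 fold change was -0.16 ± 0.28 with all libraries (adjusted p = 0.999 in edgeR, as for every member with all libraries) and -0.41 ± 0.13 without replicate 3.

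Hnrnpdl, a relative of Hnrnpd that regulates its own output through alternative exons near its 3′ end, was at 324, 306 and 242.4 CPM in wild type and at 233, 228 and 242.2 in Ythdf2-/-. The groups did not overlap, but wild-type replicate 3 exceeded the highest mutant by a margin of only the last digit given. With all libraries, its log2 fold change was -0.31 ± 0.15 (unadjusted p = 0.0853), and -0.42 ± 0.10 without wild-type replicate 3 (unadjusted p = 0.00386), the smallest p of any member in that fit.

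Hnrnpa0, a single-exon gene of the same group, had one of the 3 highest fold changes among members. Its values were 147, 134 and 140 CPM in wild type and 143, 154 and 147 in Ythdf2-/-, which overlap, with a log2 fold change of 0.08 ± 0.11, or 0.08 ± 0.09 without wild-type replicate 3. Hnrnpa3 had wild-type values from 342 to 545 CPM and mutant values from 367 to 466, and Hnrnpd from 211 to 298 and from 217 to 268. Their log2 fold changes were -0.15 ± 0.22 and -0.10 ± 0.18, or -0.33 ± 0.14 and -0.21 ± 0.14 without that library. Hnrnpa1 had values of -0.04 ± 0.15 and -0.11 ± 0.12.

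Hnrnpc, which binds uridine-rich tracts and limits the use of cryptic exons, was at 556.2, 555.9 and 417 CPM in wild type and at 540, 520 and 451.5 in Ythdf2-/-. The groups overlapped and the log2 fold change was -0.02 ± 0.18, or -0.14 ± 0.13 without wild-type replicate 3.

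The hnRNP F and H proteins bind runs of guanine near splice sites. Hnrnph1 was the member with the smallest p with all libraries, at 361.5, 349 and 395 CPM in wild type and at 232.5, 289 and 272 in Ythdf2-/-. Every wild-type library was above every mutant, and here wild-type replicate 3 was the highest of the 6, at 111% of the mean of the other 2. The log2 fold change was -0.48 ± 0.14 (unadjusted p = 0.0149, adjusted p = 0.999), which puts the mutant level at 71.8% of wild type, and -0.43 ± 0.12 without wild-type replicate 3 (unadjusted p = 0.0133, adjusted p = 0.219). Without Ythdf2-/- replicate 1, the lowest library, it was -0.38 and the unadjusted p was 0.0758.

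Hnrnpf, another gene of this group, was arranged differently. It was at 797, 730 and 389 CPM in wild type and at 634, 584 and 625 in Ythdf2-/-. Wild-type replicate 3 was the lowest of all 6 libraries, at 51.0% of the mean of the other 2, the lowest such share of any member. Its log2 fold change was -0.06 ± 0.28, or -0.31 ± 0.12 without that library. Hnrnph2 (154 to 206 CPM over the 6 libraries) and Hnrnph3 (5.95 to 8.88) had log2 fold changes of -0.04 ± 0.15 and 0.04 ± 0.24, or -0.02 ± 0.15 and 0.14 ± 0.23 without it.

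Among the hnRNP K, L, M and R genes, Hnrnpk, a protein with KH domains that binds cytosine-rich RNA, was at 1075, 1036 and 839 CPM in wild type and at 889, 896.5 and 841 in Ythdf2-/-. Wild-type replicates 1 and 2 were above all mutants and replicate 3 just below them. The log2 fold change was -0.17 ± 0.17, or -0.27 ± 0.12 without wild-type replicate 3 and -0.098 without wild-type replicate 1. Hnrnpl, which binds CA repeats, was at 305, 277 and 190 CPM and at 247, 271 and 258 in the mutants, with a log2 fold change of 0.01 ± 0.20. Its direction depended on wild-type replicate 3, without which the value was -0.17 ± 0.10.

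Of the rest of that group, Hnrnpll ranged from 75.9 to 118 CPM in wild type and from 87.4 to 107 in Ythdf2-/-, and Hnrnpm from 193 to 273 and from 224 to 249. Their log2 fold changes were -0.10 ± 0.20 and -0.02 ± 0.17, or -0.28 ± 0.11 and -0.15 ± 0.10 without wild-type replicate 3. Hnrnpr was the reverse case, with 215, 206.5 and 273 CPM in wild type against 207, 189 and 192. Wild-type replicate 3 was its highest library, and its log2 fold change was -0.24 ± 0.15 with that library and -0.10 ± 0.09 without it.

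The hnRNP U genes encode large nuclear matrix-associated proteins that bind RNA and chromatin. Hnrnpu was at 847, 807.5 and 645 CPM in wild type and at 789, 684.5 and 836 in Ythdf2-/-, with a log2 fold change of 0.01 ± 0.18. Hnrnpul1 was at 226, 213.5 and 223 CPM and at 230, 239.5 and 209 in the mutants, with a log2 fold change of 0.03 ± 0.12, and Hnrnpul2 had one of -0.04 ± 0.13. In these 3 genes the genotypes overlapped, and without wild-type replicate 3 the values were -0.10 ± 0.14 for Hnrnpu, 0.04 ± 0.10 for Hnrnpul1 and -0.10 ± 0.10 for Hnrnpul2.

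In the SR protein genes, each Ythdf2-/- library had a lower summed level than each wild-type library. The summed CPM was 2450, 2360 and 2194 in wild type and 1992, 1935 and 2048 in Ythdf2-/-, with means of 2335 ± 130 and 1992 ± 56.5 (SD, n = 3). This separation rested on Srsf5 in wild-type replicate 3: without Srsf5 the sum was 2115, 2009 and 1658 in wild type and 1687, 1616 and 1750 in Ythdf2-/-, and the groups overlapped. For the 19 hnRNP genes the sum was 7366, 6881 and 5429 in wild type and 6082, 6031 and 6167 in Ythdf2-/-, with wild-type replicate 3 below all mutants. Negative fold changes were found for 10 of 11 SR genes, with a median of -0.24, and for 14 of 19 hnRNP genes, with a median of -0.04. Without wild-type replicate 3 the counts were 10 of 11 and 16 of 19 and the medians -0.28 and -0.15. The difference between the 2 families was not tested.

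**Figure D3:**
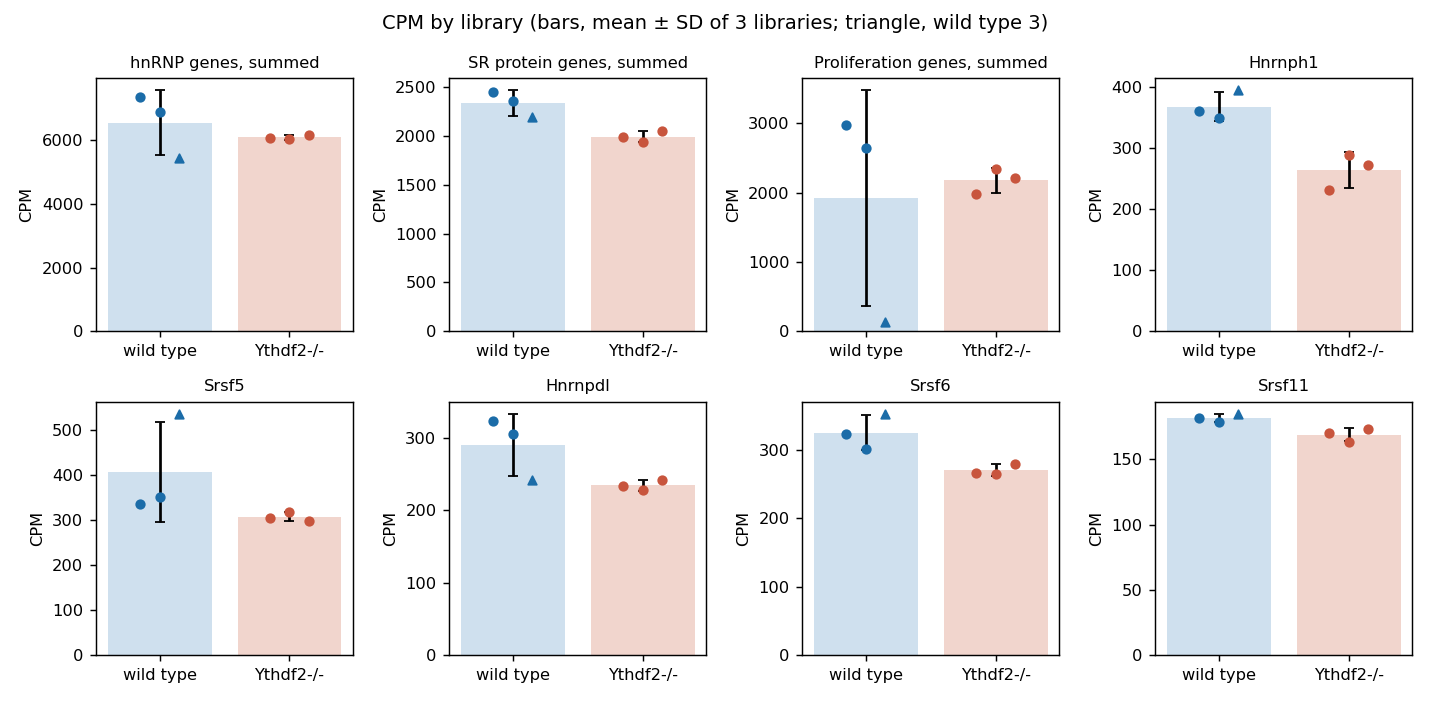
CPM by genotype for the summed hnRNP genes, the summed SR genes, the summed proliferation genes and the 5 genes whose libraries did not overlap. Bars are means, error bars SD of 3 libraries, circles libraries and the triangle wild-type replicate 3, which is lowest of all 6 for the hnRNP sum (5429) and the proliferation sum (133) and highest for Srsf5, Srsf6, Hnrnph1 and Srsf11.

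Srsf5, which has a role in exon enhancer recognition and responds to growth signals, was at 335.5, 351 and 536 CPM in wild type and at 305, 319 and 298 in Ythdf2-/-. All wild-type libraries were above all mutants, and wild-type replicate 3 was the highest, at 156% of the mean of the other 2, the highest such share of any member. The log2 fold change was -0.41 ± 0.21 (unadjusted p = 0.103), and it was -0.16 ± 0.10 without that library (unadjusted p = 0.159).

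Srsf6, which regulates exon choice in neural transcripts among others, was at 323, 301.5 and 353 CPM in wild type and at 267, 265 and 280 in Ythdf2-/-. The groups did not overlap, with a log2 fold change of -0.27 ± 0.13 (unadjusted p = 0.0788) that was -0.21 ± 0.10 without wild-type replicate 3. Srsf11 was at 182, 178.5 and 184.5 CPM and at 170, 163.5 and 173 in the mutants. The separation was complete but narrow, with a log2 fold change of -0.11 ± 0.11, or -0.09 ± 0.09 without that library.

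Srsf3, the smallest SR protein and a splicing factor that also takes part in mRNA export, was at 446, 435 and 305 CPM in wild type and at 311, 366 and 328 in Ythdf2-/-. Wild-type replicates 1 and 2 were above all mutants and replicate 3 was below all. For Srsf3 the log2 fold change was -0.24 ± 0.19, or -0.40 ± 0.12 without that library (unadjusted p = 0.0134) and -0.14 without wild-type replicate 1. Srsf7, its close relative with a zinc knuckle, had the same arrangement, at 190, 184 and 116 CPM against 146.5, 124 and 142. Its log2 fold change was -0.25 ± 0.21 with all libraries and -0.45 ± 0.11 without wild-type replicate 3 (unadjusted p = 0.00522).

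The founding SR proteins Srsf1 and Srsf2 had log2 fold changes of -0.12 ± 0.16 and -0.20 ± 0.22, or -0.24 ± 0.12 and -0.39 ± 0.13 without wild-type replicate 3 (unadjusted p = 0.0851 and 0.0213). Srsf1 was between 332 and 453 CPM in wild type and between 340 and 381 in Ythdf2-/-, and Srsf2 between 131 and 208 and between 136 and 176. Srsf9 and Srsf10 had log2 fold changes of -0.08 ± 0.21 and -0.24 ± 0.16, or -0.28 ± 0.09 and -0.33 ± 0.13 without that library (unadjusted p = 0.0198 and 0.0482). In all 4 genes, wild-type replicates 1 and 2 were above the 3 mutants, and wild-type replicate 3 was the lowest wild-type library, at 63.2% of the mean of the other 2 for Srsf2 and at 61.2% for Srsf9.

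The extremes of the SR genes were low-count genes. Srsf12 was at 2.40, 2.90 and 2.75 CPM in wild type and at 1.62, 2.81 and 0.966 in Ythdf2-/-, and its log2 fold change of -0.57 ± 0.43, the most negative of any member with all libraries, went with overlapping groups and with a range from -1.04 without Ythdf2-/- replicate 2 to -0.27 without Ythdf2-/- replicate 3. Srsf4 had the most positive value, 0.20 ± 0.18, at 19.8, 16.03 and 14.46 CPM against 20.0, 17.4 and 20.1, which also overlap. Without wild-type replicate 3 the values were -0.55 ± 0.47 for Srsf12 and 0.10 ± 0.16 for Srsf4.

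The Tra2 genes encode SR-like enhancer-binding proteins. Tra2b was at 290, 277 and 169 CPM in wild type and at 223, 211 and 228 in Ythdf2-/-, so that wild-type replicates 1 and 2 lay above all mutants and replicate 3, at 59.7% of their mean, below all. Its fold change on the log2 scale was -0.15 ± 0.22, or -0.36 ± 0.09 without that library (unadjusted p = 0.00835). The value was -0.013 without wild-type replicate 1 and -0.055 without wild-type replicate 2. Tra2a, whose poison exon site nearly matches that of Tra2b, had no such arrangement, at 146.5, 145 and 142 CPM against 146, 156.5 and 119 and a log2 fold change of -0.04 ± 0.14, or -0.05 ± 0.13 without wild-type replicate 3.

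At the 3′ splice site, the summed CPM of U2af1, U2af2, Sf1 and Sf3b1 was 1148, 1095 and 1121 in wild type and 1038, 1037 and 969 in Ythdf2-/-, and these sums did not overlap. No gene of this group was separated alone. Sf3b1 was highest in wild-type replicate 3, at 483, 469 and 553 CPM in wild type and 470.5, 499 and 421 in Ythdf2-/-, while U2af1 and U2af2 had their lowest wild-type value there. U2af2 was at 357, 348 and 282.3 CPM against 294, 282.0 and 274, with a log2 fold change of -0.21 ± 0.14 that was -0.31 ± 0.10 without wild-type replicate 3 (unadjusted p = 0.0171). U2af1 was at 118, 109 and 95.5 CPM against 106, 86.9 and 93.7, with a log2 fold change of -0.17 ± 0.14, or -0.25 ± 0.11 without that library. The value for U2af1 was -0.099 without wild-type replicate 1 and -0.097 without Ythdf2-/- replicate 2. Both genes overlapped through wild-type replicate 3. Sf1 and Sf3b1 had log2 fold changes of -0.09 ± 0.12 and -0.11 ± 0.15, or -0.06 ± 0.10 and -0.04 ± 0.12 without it.

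The Srrm genes encode large matrix proteins with arginine-serine repeats that act as splicing coactivators. Srrm2 was at 707, 691 and 930 CPM in wild type and at 761, 820 and 850 in Ythdf2-/-, and Srrm1 at 185, 173 and 241 against 181, 187 and 188. Wild-type replicate 3 was the highest library for both, at 133% and 135% of the mean of the other 2. The log2 fold changes were 0.06 ± 0.18 and -0.11 ± 0.16, and without that library they were 0.21 ± 0.12 and 0.05 ± 0.09, so Srrm1 changed sign. Without wild-type replicate 2 the value of Srrm2 was -0.013.

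**Figure D4:**
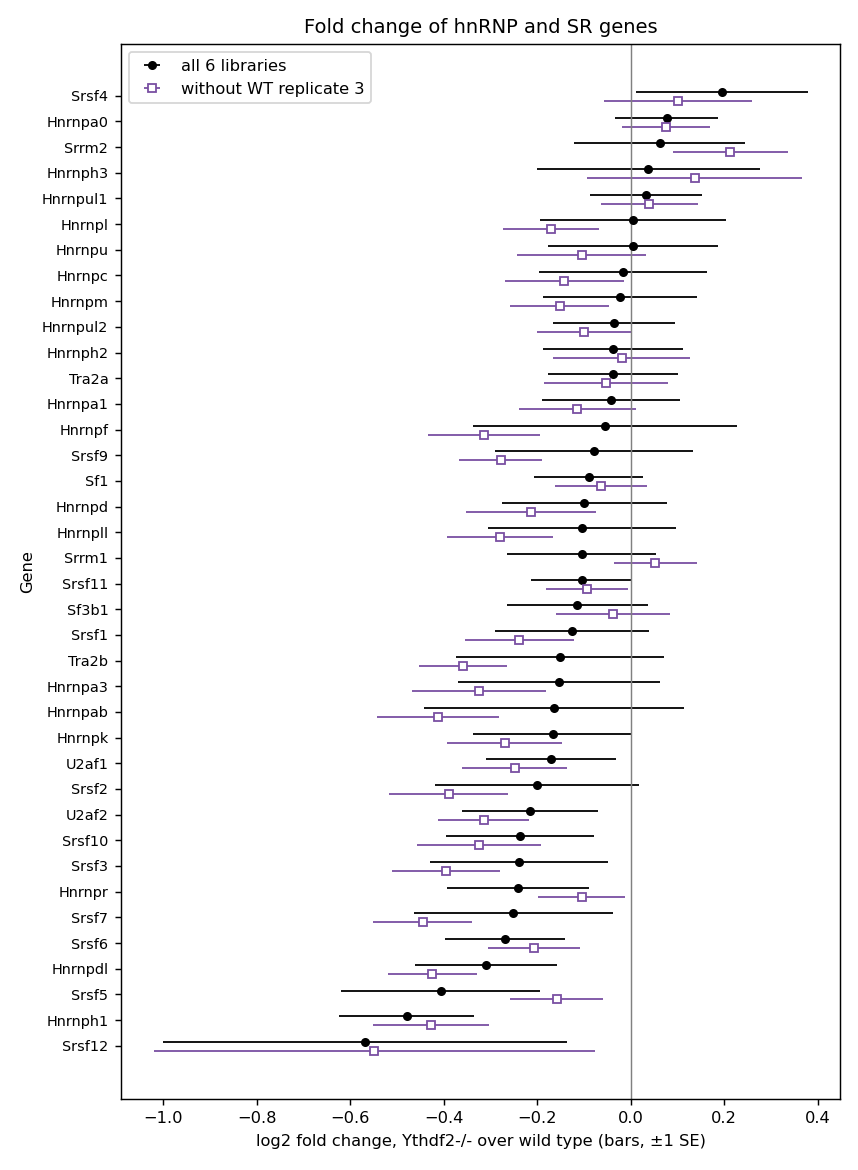
Log2 fold change of each gene, Ythdf2-/- over wild type (x axis, bars ± 1 SE), with all 6 libraries (black circles) and without wild-type replicate 3 (open purple squares), ordered by the value with all libraries. The values run from -0.57 for Srsf12 to 0.20 for Srsf4, and 32 of 38 lie below 0 without wild-type replicate 3.

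Members were also split by the annotation of NMD transcripts. The 26 genes with one had a median log2 fold change of -0.11, with 21 negative, and the 12 without one a median of -0.05, with 10 negative. Without wild-type replicate 3 the medians were -0.19 and -0.23. The difference was not tested.

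The other 94 genes of the splicing machinery, taken from lists by complex, had the same sign in most cases. Their log2 fold change was negative for 73 of 94 with all libraries (median -0.09), against 51.9% of all genes. Without wild-type replicate 3 it was negative for 68 (median -0.10), against 48.2% of all genes. None of the 94 passed an adjusted p of 0.05 in edgeR's test. Limma-voom with quality weights called 3 of the 94, where it called 0.557% of all genes lower and 0.595% higher. In edgeR's test 2 had an unadjusted p under 0.05, both lower in Ythdf2-/-, where the share over all genes was 1.82%. With wild-type replicate 3 left out, 23 of the 94 had such a p on the lower side and 1 on the higher side, against 8.58% and 8.03% of all genes. The 2 genes with all libraries were Eftud2, a GTPase of the U5 snRNP, and Rbmx, an hnRNP-like protein encoded on the X chromosome. Eftud2 was at 222, 219 and 236 CPM in wild type and at 176, 181 and 164 in Ythdf2-/-, without overlap, with a log2 fold change of -0.38 ± 0.12 (unadjusted p = 0.0154, adjusted p = 0.999 in edgeR) that was -0.35 without wild-type replicate 3. Rbmx was at 154, 149 and 189 CPM against 122, 125 and 111, also without overlap, with a log2 fold change of -0.46 ± 0.14 (unadjusted p = 0.0156, adjusted p = 0.999 in edgeR) that was also -0.35 without it.

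By complex, the log2 fold change was negative for 10 of 10 genes of the U1 snRNP and its helpers, for 9 of 9 of the exon junction complex, for 7 of 8 Sm core genes and for 11 of 14 of the U2 snRNP. It was negative for 10 of 14 tri-snRNP genes, for 13 of 16 other hnRNP and RNA-binding regulators, for 9 of 15 genes of the Prp19 complex and catalysis, and for 5 of 9 SR protein kinases and transport genes. Leaving out wild-type replicate 3 gave 7 of 10 for U1, 8 of 9 for the exon junction complex, 7 of 8 for the Sm core and 12 of 14 for U2, and in the second group 11 of 14, 12 of 16, 10 of 15 and 2 of 9. The median went from -0.14 to -0.05 for the U1 list, from -0.20 to -0.38 for the Sm core, from -0.06 to -0.16 for the tri-snRNP, from -0.05 to -0.07 for the Prp19 list and from -0.02 to 0.09 for the SR protein kinases and transport genes. For the U2, exon junction and other hnRNP lists it was -0.12, -0.21 and -0.10 with all libraries and -0.16, -0.21 and -0.13 without that one.

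The promoters of these genes were rich in GC and CpG. RefSeq promoters (GRCm38.p6, 250 bases before to 50 after the start) matched 33 of the 38 genes, with a median GC content of 65.0% against 61.3% in the 9992 promoters of tested genes and a median observed to expected CpG ratio of 0.983 against 0.776. Both strands were searched for 8 short motifs, without removing overlaps between them. The GC box GGGCGG was in 87.9% of member promoters and 65.9% of all, CCAAT in 54.5% and 39.2%, the partial CRE TGACGT in 30.3% and 12.1%, and TATAAA in 12.1% and 6.49%. The ETS core CCGGAAG was in 18.2% of both, the E-box CACGTG in 12.1% and 10.2%, the partial NRF1 motif GCATGCGC in 12.1% and 5.63%, and the full NRF1 core in 3.03% and 2.18%. The 10 promoters with TGACGT were those of Hnrnpa3, Hnrnph2, Hnrnpm, Sf1, Srsf3, Srsf6, Srsf11, Tra2a, Tra2b and U2af1.

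The letters GGACT, a frequent form of the m6A consensus, were less dense in these transcripts than in others. In the longest coding transcript of each gene in GENCODE M21, the median density was 0.569 per kilobase among members and 1.04 among all 12288 genes, although 92.1% of members and 93.4% of all genes held at least 1. The density was 1.65 in Hnrnph1, 2.75 in U2af2 and 2.58 in Srsf9, and Hnrnpab, Srsf5 and U2af1 held none. These are matches to letters, and m6A itself was not measured in the files used.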

How the data were processed

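RNA-seq input libraries of wild-type and Ythdf2-/- NSPCs were used, 3 of each, grouped by the genotype in the labels, and the 6 m6A-IP samples were not analysed. The members and lists were chosen with earlier results of these data known. The authors fragmented mRNA, prepared stranded libraries, used TopHat for alignment to mm10 and deposited whole-number read counts per gene, for which the submitters' processing notes name featureCounts. The deposited expected counts and FPKM values carry the columns of an RSEM table (the notes name RSEM 1.2.15 and Bowtie2 2.2.9), and the expected counts sum to 1.97 to 2.40% of the raw counts, so FPKM served only for an alternative test, limma on log2(FPKM + 1), while the gene length column, a deposited score in bases, was used for RPKM.

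Counts were tested with edgeR 4.0.16 (filterByExpr, TMM, robust quasi-likelihood fit, genotype as the only term, Benjamini-Hochberg adjustment over 13112 genes, R 4.3.3). SE is the absolute log2 fold change divided by the root of F. DESeq2 1.42.0, limma 3.58.1 and other settings were alternatives. Coordinates are GRCm38.p6, the build called mm10, and other loci were found with minimap2 2.31. On simulated counts for 13112 genes, the test recovered 93.5% of 2-fold changes when the biological coefficient of variation was set to 0.1 and 8.5% when it was 0.33, near the fitted common value of 0.332. The simulation gave every gene the same variation and held no outlying library. Its shares therefore do not describe the members, whose median coefficient of variation of CPM was 13%. Genes named with values in each library were Ythdf2, the 2 members of each role with the highest RPKM, members whose genotypes did not overlap, the 3 largest fold changes in each direction, members with an unadjusted p under 0.05, and the other splicing genes with such a p. Other values of single members were chosen after they were seen. The study calls the replicates biological, though nothing in the labels ties a library to an embryo. With 3 libraries against 3, an exact permutation test cannot go below 0.1. One list of cell type markers is not reported here.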

Additional observations from a re-analysis of the deposited data

How the results depend on the processing

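Srsf12, Hnrnph3 and Srsf4 were under 21 CPM, and the other 35 members above 40 CPM in every library. Genes called over the whole table numbered 0 in edgeR's test, 1 with DESeq2's size factors, with no filter and with a minimum of 10 counts per library, 31 with DESeq2, 151 with quality weights, 2 with limma on FPKM and 0 to 2 with 1 library left out. Members called were 1 with quality weights, where 3 of the other 94 splicing genes were also called, and 0 otherwise. Members with an unadjusted p under 0.05 were 2 with DESeq2 and 16 with quality weights, all lower, against 2.36% and 13.4% of genes on that side. They were 0 with FPKM, against 1.47%, and 0 to 12 with 1 library left out. The 12 were without wild-type replicate 3, against 8.58% of genes on the lower side. Members without overlap in the lower direction numbered 22 without wild-type replicate 3, against 20.0% of genes. They numbered 4 to 7 with any other library left out and 0 with FPKM, where the share over all genes was not worked out. With FPKM the median member was at 0.17 and 16 of 38 members were lower. All genes in that fit had a median of 0.11, with 42.1% lower, and 43 of 94 other splicing genes were lower. With FPKM, Hnrnpab (0.50), Hnrnpc (0.26), Hnrnpf (0.12), Hnrnpk (0.12), Hnrnpul1 (-1.12), Srrm1 (0.78), Srsf4 (-0.30), Srsf5 (0.33), Tra2a (0.75), Tra2b (1.66), U2af1 (1.37) and U2af2 (0.72) reversed. Those tables held under 30 expected counts in every library for 36 of 38 members. Hnrnpl and Hnrnpu were at -0.002 with DESeq2's size factors and with DESeq2, and at -0.18 and -0.06 with quality weights, where Srrm1 was at 0.044. Hnrnpf was at 0.019 with limma-voom and 0.008 with the replicate block. With 1 library left out, the sign turned within these ranges: Hnrnpab -0.412 to 0.037, Hnrnpc -0.142 to 0.057, Hnrnpf -0.313 to 0.136, Hnrnpl -0.171 to 0.147, Hnrnpu -0.105 to 0.093, Srrm1 -0.197 to 0.053, Srrm2 -0.013 to 0.213, Tra2a -0.111 to 0.068. The median member ranged from -0.19 (32 lower, without wild-type replicate 3) to -0.02 (22 lower, without wild-type replicate 1). The log2 fold change of Ythdf2 was -2.67 with DESeq2's size factors, -2.64 with no filter, -2.66 with the count minimum, -2.67 with DESeq2 and -2.61 with quality weights, all past the threshold. It was not past it in edgeR's test with total counts only (-2.64, adjusted p = 0.0722), in limma-voom (-2.65, adjusted p = 0.0727) or with the replicate block (-2.66). With 1 library left out, the value ranged from -2.78 to -2.54, past the threshold only without wild-type replicate 3. Hnrnph1 passed it with quality weights (-0.52). Same-numbered libraries had correlations of deviations from their group means of -0.248, -0.244 and -0.394. Since wild-type replicate 3 stood apart, these values cannot decide whether the replicate numbers mark pairs. With the replicate block 0 members were called, 1 had an unadjusted p under 0.05 and the median member was at -0.10. The causes of these differences were not tested. Of 330 values of the 22 named members under alternatives, 295 kept their direction and 35 reversed.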
